A study of Mus musculus with 6 samples.

Results

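The keratin family was examined in mouse tongue as the set of array probes whose RefSeq accession belonged to a gene named Krt followed by a number and at most 1 letter, keratin-associated proteins left out. Of 54 such genes in the gene table, 53 had a probe (64 probes in all), among 48718 genes and unnamed probes on the array, and Krt83 had none. RNA came from tongue of 6 mice, 3 given doxycycline (DOX) for 2 weeks and 3 left untreated (no DOX), and was read on single-colour Agilent arrays. All 6 mice had the same genotype, named iDek on a C57Bl6 background, in which the chromatin protein Dek is inducible by DOX; the label describes this as ubiquitous and squamous cell-specific and does not name the driving promoter. Because no mice without the transgene were given DOX, DOX and Dek induction cannot be told apart. A carcinogen appears in the title of the series but in no label of these mice. The comparison asks how keratin expression differed between tongues of mice with and without DOX.

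Keratins are the intermediate filament proteins of epithelial cells. A filament is built from pairs of an acidic type I chain and a basic type II chain, so the genes are usually switched on in pairs. Basal cells of stratified epithelium make Krt5 and Krt14, and in soft oral mucosa the cells that leave the basal layer make Krt4 and Krt13. Krt6a, Krt6b, Krt16 and Krt17 are induced in skin by wounding and inflammation and are also made in oral epithelium. The spiny filiform papillae on the back of the mouse tongue make hair-type keratins otherwise known from hair and nail.

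Values below are normalised log2 signals, that is, the log2 of the processed spot signal minus the 75th percentile of that array, so 0 is the brightness of the probe at the 75th percentile and each unit up doubles it. Per array, 56.0% to 58.3% of probes passed the scanner's background test, saturation was absent, and the 75th percentile was 246 to 264 signal units. The number of arrays limits the precision. Dek, read by 1 probe, was at 2.41, 2.41 and 2.27 in DOX mice, against 2.30, 2.10 and 2.20 in no DOX mice. The groups overlapped, and the log2 difference of 0.17 ± 0.11 (SE) did not pass (limma, adjusted p = 0.456). Whether that probe reads the induced transcript was not tested, so its values do not check the labels. All 9 skeletal muscle markers looked for, such as Acta1, were detected and tested, as were all 10 epithelial genes that are not keratins. In whole tongue, fewer cells of a type and less RNA per cell cannot be told apart.

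No keratin passed the test. Of the 53 genes, 41 were tested and each was well above background on all 6 arrays, so none was let in by 1 group alone. With limma and Benjamini-Hochberg adjustment over all probes tested, 0 of 41 keratins had an adjusted p under 0.05, against 0.404% of all 26256 genes and unnamed probes (0.278% higher and 0.126% lower). The smallest adjusted p among keratins was 0.172. At an unadjusted p under 0.05 there were 5 keratins (12.2%), where all genes gave 18.6%, and 8 keratins (19.5%) had groups that did not overlap, where all genes gave 25.4%. In the fit with all 6 mice both shares lay below those of all genes. The first count depended on the mice: leaving out no DOX replicate 1 gave 9 keratins (22.0%), above the 13.6% of all genes in that fit. Leaving out DOX replicate 3 also gave 9, against 19.7% of all genes, and leaving out DOX replicate 2 gave 3 (7.32%), against 16.7%. The mean was higher with DOX for 28 keratins and lower for 13, against 12853 and 13403 of all genes tested. The median log2 difference was 0.21, against -0.01 over all genes tested.

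**Figure D1:**
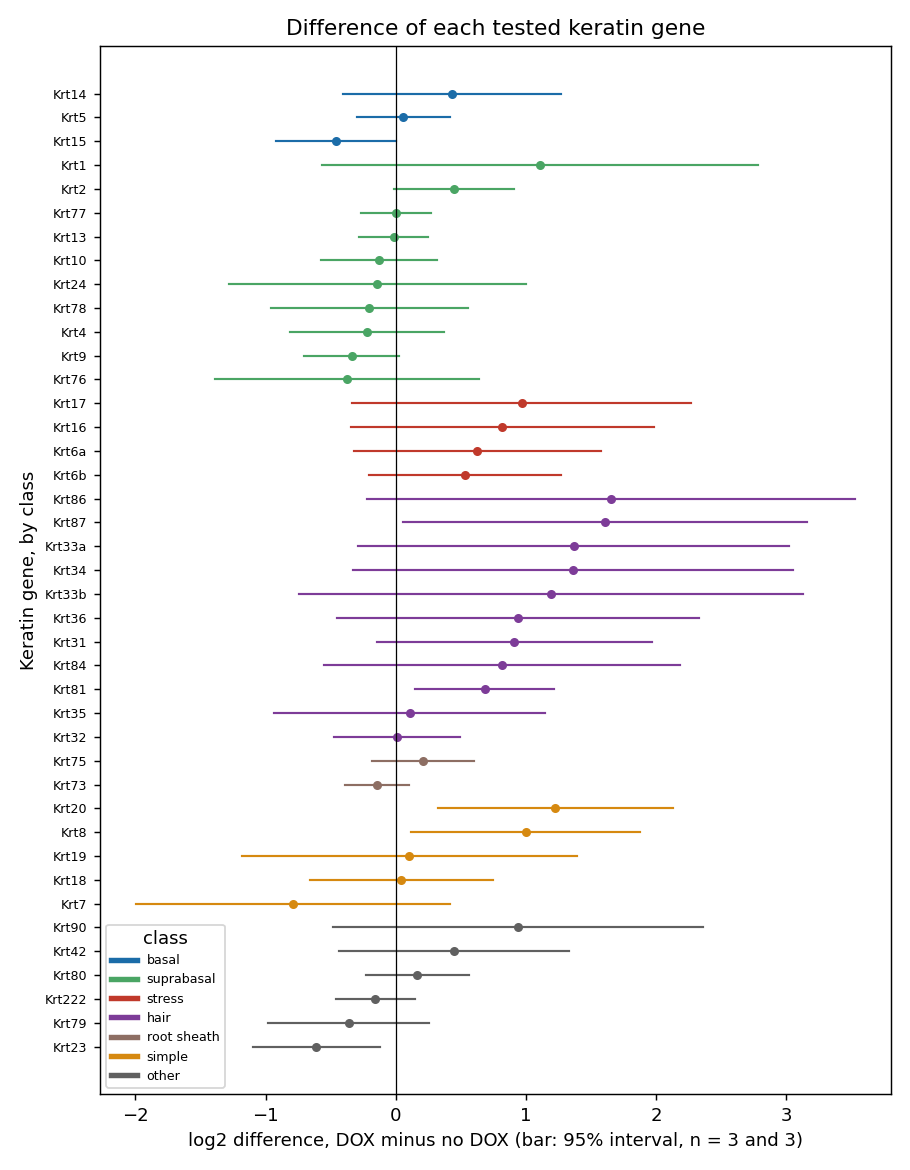
Log2 difference (DOX minus no DOX) of each of the 41 tested keratins on the x axis, with its 95% interval as a bar (limma, n = 3 and 3), ordered by class down the page. The 11 hair-type and 4 stress keratins lie right of 0, most intervals cross 0, and no keratin passed after adjustment.

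Keratins varied widely among mice of the same group. The median residual standard deviation within groups was 0.56 on the log2 scale for the tested keratins, against 0.19 for all genes tested, and 24 of the 41 lay above 0.44, the 90th percentile of all genes. As a result the 95% interval of the log2 difference stayed between -1 and 1 for 16 of 41 keratins, against 83.8% of all genes. For the other keratins a change of 2-fold or more in some direction was not excluded by these arrays.

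The brightest keratin probes were those of oral stratified epithelium. Brightness also depends on the probe, so the order is one of signals and not of RNA amounts. By mean signal over 6 arrays Krt13 ranked 37 of 26256, Krt6b 57, Krt5 156, Krt16 213, Krt4 310, Krt14 704 and Krt17 719. Krt78, Krt6a, Krt15, Krt23, Krt10, Krt36, Krt18, Krt84, Krt76 and Krt32 followed, all between 862 and 1726. After a gap, Krt42 came next at 3697. The dimmest tested keratin, Krt77, ranked 22347. For the brightest probes the order of the first pair differed by group. Krt13 averaged 9.28 ± 0.12 and Krt6b 9.34 ± 0.60 in DOX mice, with overlapping values and Krt6b highest in DOX replicate 1 (9.96). In no DOX mice all 3 Krt13 values lay above all 3 of Krt6b (9.30 ± 0.08 and 8.81 ± 0.27, SD, n = 3 each). By the dimmer probes the mean of Krt13 was above that of Krt6b in both groups. These means were 7.91 and 7.24 in DOX mice, and 7.84 and 6.59 in no DOX mice.

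**Figure D2:**
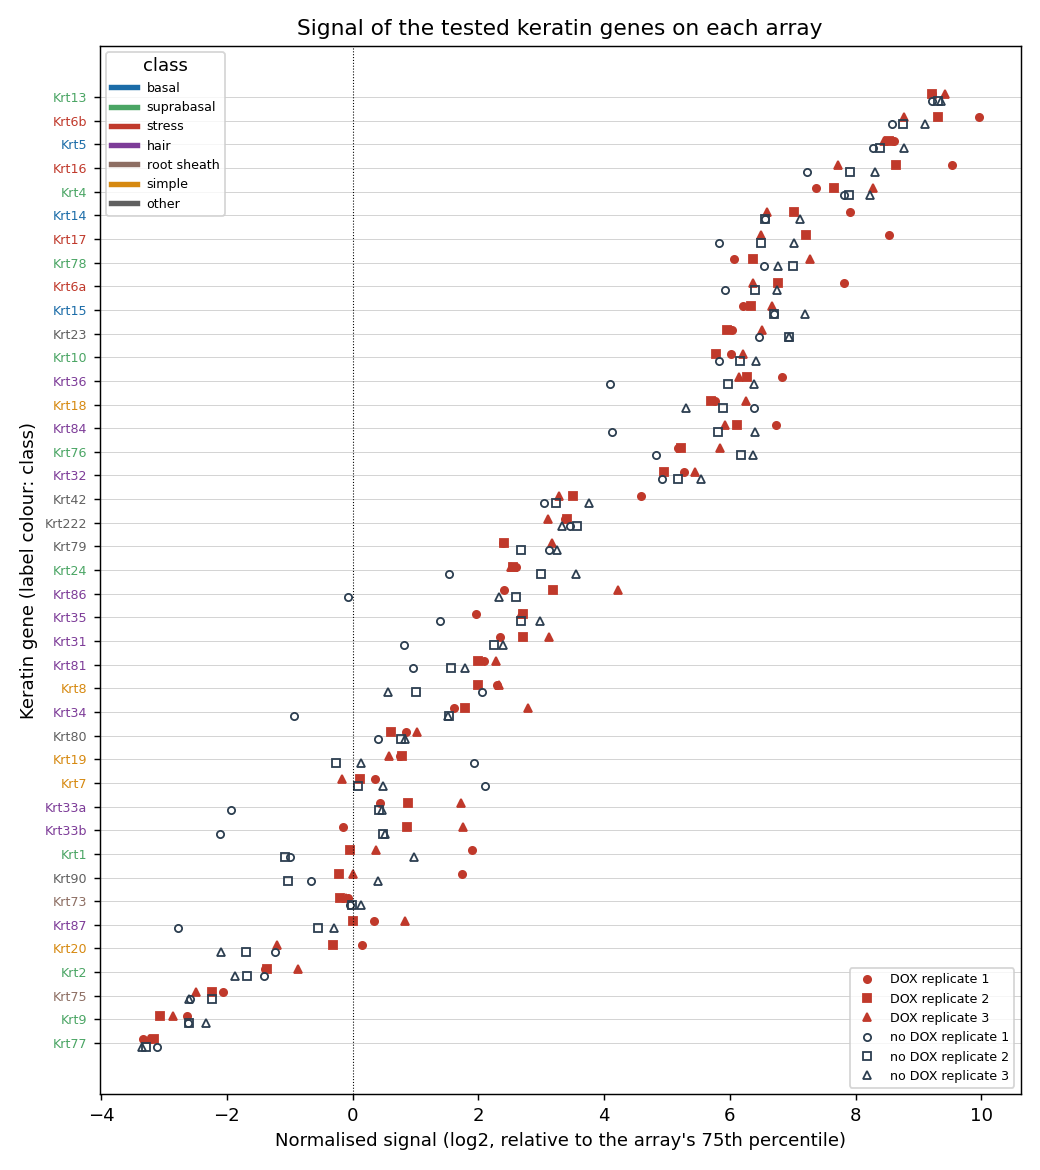
Normalised log2 signal (x axis) of the 41 tested keratins, ordered by mean signal down the page, with filled red symbols for the 3 DOX mice and open dark symbols for the 3 no DOX mice. Krt13 spans 0.21 log2 units over the 6 arrays and Krt86 spans 4.28.

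Another 12 keratins with a probe were too dim to test. These were the root sheath keratins Krt25, Krt26, Krt27, Krt28, Krt71, Krt72 and Krt74, the hair-type keratins Krt39, Krt40 and Krt82, the corneal keratin Krt12, and Krt88. For 10 of them no array was well above background. Krt25 was well above background on 0 of 3 DOX arrays and 2 of 3 no DOX arrays, and Krt28 on 0 and 1. Of the root sheath class, then, 2 of 9 genes were tested. Krt73, of the inner root sheath, was at -0.07, -0.20 and -0.10 in DOX mice, against -0.05, -0.02 and 0.13 in no DOX mice, and did not pass (adjusted p = 0.503 by limma). The DOX values lay just below the others. Krt75, of the companion layer of the hair follicle, was at -2.06, -2.24 and -2.50 with DOX, against -2.59, -2.23 and -2.60 without, and its groups overlapped.

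Among the 3 basal keratins the differences pointed both ways. Krt5, the basal type II chain, was at 8.61, 8.53 and 8.45 in DOX mice, against 8.28, 8.38 and 8.76 in no DOX mice. Its groups overlapped, and the log2 difference of 0.06 had a 95% interval from -0.30 to 0.42. Krt14, its usual type I partner, was at 7.91, 7.02 and 6.58 with DOX, against 6.57, 6.55 and 7.11 without. DOX replicate 1 stood highest, and the difference was 0.43 ± 0.35 (SE). Without that mouse Krt14 was at a difference of 0.06. Krt15, a type I keratin of basal cells with stem-like features, was at 6.21, 6.33 and 6.68 in DOX mice, against 6.70, 6.69 and 7.20 in no DOX mice. All 3 DOX values lay below all 3 no DOX values, by little, and the difference of -0.46 ± 0.19 did not pass (adjusted p = 0.270, limma). The class median was 0.06.

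The main suprabasal pair of soft mucosa differed little between groups. Krt13, the type I keratin of differentiating oral cells, was at 9.22, 9.21 and 9.42 in DOX mice, against 9.21, 9.31 and 9.36 in no DOX mice. This was a log2 difference of -0.02, with a 95% interval from -0.28 to 0.25. Its type II partner Krt4 was at 7.36, 7.65 and 8.27 with DOX, against 7.82, 7.90 and 8.23 without. DOX replicate 1 was the lowest and DOX replicate 3 the highest of the 6, and the difference of -0.22 ± 0.25 did not pass. Krt76, known from hard-wearing oral mucosa such as palate, was at 5.18, 5.23 and 5.85 with DOX, against 4.83, 6.17 and 6.37 without. No DOX replicate 1 was the lowest of the 6 for Krt76, and also for Krt24 (1.54, where the other arrays lay between 2.52 and 3.55). Without that mouse the Krt76 difference was -0.85, in place of -0.37.

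The keratins of cornifying epidermis were dimmer on this array, apart from Krt10. Krt10 lay between 5.78 and 6.21 in DOX mice and between 5.82 and 6.41 in no DOX mice. Krt1, the partner of Krt10 in epidermis, was at 1.89, -0.04 and 0.37 with DOX, against -0.99, -1.07 and 0.97 without. Its difference of 1.11 ± 0.70 rested on DOX replicate 1 and was 0.53 without it. Krt90, a type II keratin, showed the same order of mice at its extremes: 1.74, -0.22 and 0.01 with DOX, against -0.66, -1.03 and 0.40 without. For both genes DOX replicate 1 was highest and no DOX replicate 3 second, with no DOX replicate 2 lowest. Krt2, made in the uppermost living layers of epidermis, was at -1.39, -1.36 and -0.86 in DOX mice, against -1.40, -1.68 and -1.87 in no DOX mice. Its groups did not overlap, by a margin smaller than their spread. Krt9, known from palms and soles, was at -2.63, -3.07 and -2.85 with DOX, against -2.61, -2.59 and -2.33 without. Over the 10 suprabasal keratins 3 means were higher and 7 lower, with a median of -0.14. The counts were 5 and 5 without DOX replicate 1, without no DOX replicate 3, or with the mean over the probes of a gene. In the last of these fits the median was -0.07.

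The 4 stress keratins had higher means with DOX, and 1 mouse carried most of the difference. Krt6b, a type II chain, was at 9.96, 9.30 and 8.76 in DOX mice, against 8.58, 8.76 and 9.10 in no DOX mice. Krt16, a type I chain that pairs with Krt6 proteins, was at 9.54, 8.65 and 7.72 with DOX, against 7.23, 7.91 and 8.31 without. Krt17, another type I chain of this set, was at 8.53, 7.21 and 6.50 with DOX, against 5.83, 6.49 and 7.02 without. Krt6a was at 7.81, 6.76 and 6.37 with DOX, against 5.92, 6.40 and 6.75 without. In all 4 genes DOX replicate 1 was the highest and no DOX replicate 1 the lowest of the 6 arrays, and the groups overlapped. DOX replicate 3 lay below no DOX replicate 3 in every one of them.

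None of the 4 passed, the smallest adjusted p being 0.390 (limma). The largest fold was that of Krt17, at 1.95 with a 95% interval from 0.793 to 4.81. The class median was 0.72 on the log2 scale, and it was 0.29 without DOX replicate 1 and 0.47 without no DOX replicate 1. Krt42, a type I keratin close to Krt17 and known from nail, was also highest in DOX replicate 1 (4.59, against 3.04 to 3.76 in no DOX mice). Genes of the epithelial alarm list, such as the S100 proteins of inflamed epithelium, were in part highest in the same mouse. Of its 9 members 6 were highest in DOX replicate 1 and 3 (Slpi, Lce3a and Defb4) in DOX replicate 3, where the stress keratins were not high. All 9 had higher means, as had 12853 of all 26256 genes tested, and 0 passed. The list was chosen with earlier results of these data known, so the count is a description only. Its summed level ran from 1547 to 3402 times the 75th percentile in DOX mice and from 1139 to 1329 in no DOX mice. The sum was highest in DOX replicate 1, where Sprr2d was at 9.39 and S100a8 at 8.87, against at most 5.50 and 5.82 in no DOX mice. Slpi, the largest part of the sum on every array, was at 9.66, 9.52 and 9.87 in DOX mice, against 9.36, 9.47 and 9.47 in no DOX mice. The part of this in the stress keratin values was not tested. Krt6a and Krt6b are near-identical copies, so the signal of either probe may include the other gene.

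**Figure D3:**
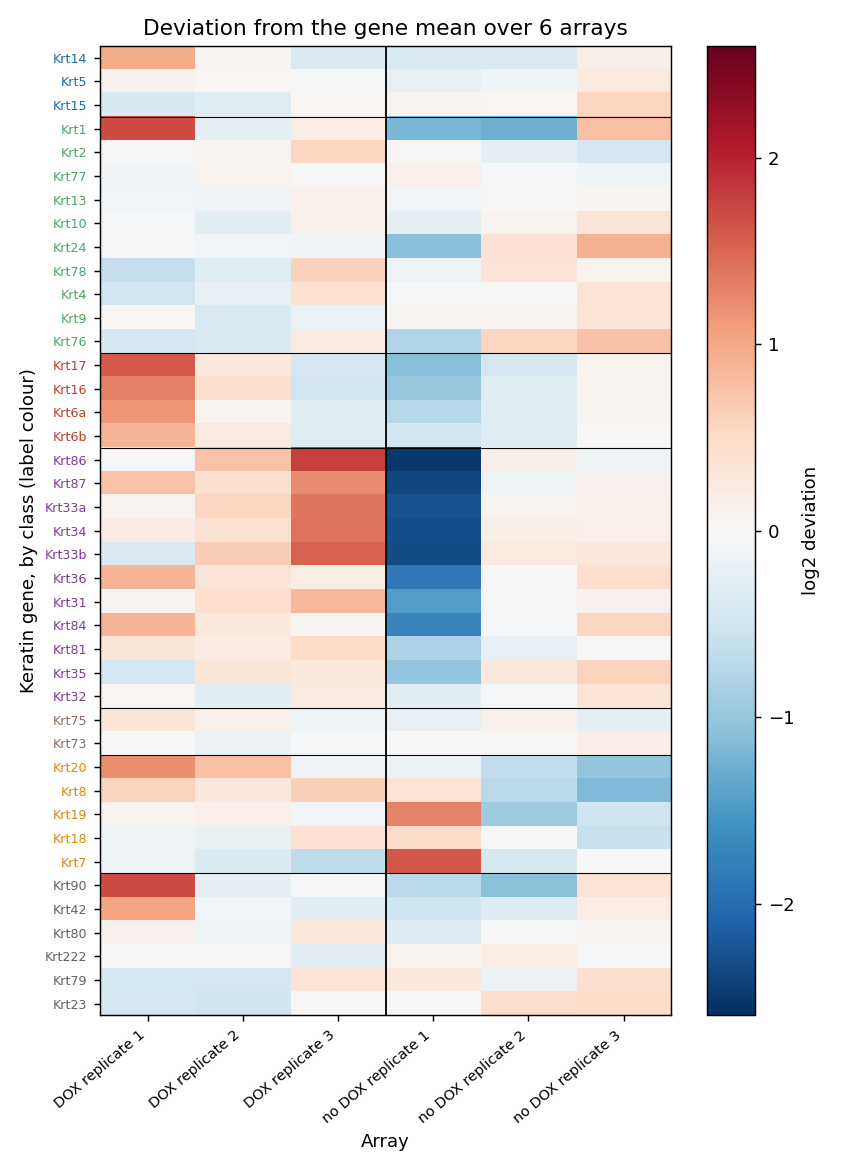
Deviation of each tested keratin from its own mean over 6 arrays (colour, log2), with DOX mice in the left columns, no DOX mice in the right columns, and genes grouped by class. The stress keratins are darkest red in DOX replicate 1, and all 11 hair-type keratins are lowest in no DOX replicate 1.

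Hair-type keratins were readily measured in tongue, with 11 of 14 genes that had a probe tested. The brightest were Krt36, a type I chain, and Krt84, a type II chain, both known from filiform papillae. Krt36 was at 6.83, 6.27 and 6.15 in DOX mice, against 4.09, 5.96 and 6.38 in no DOX mice. Krt84 was at 6.74, 6.12 and 5.92 with DOX, against 4.13, 5.80 and 6.40 without. The pair ran closely together: no DOX replicate 1 was lowest by over 1 log2 unit, and the other 5 mice lay within 1 unit of each other. Differences were 0.94 ± 0.58 for Krt36 and 0.82 ± 0.57 for Krt84, and were 0.25 and 0.16 without no DOX replicate 1.

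A second set, made mostly of keratins of the hair cortex, was dimmer and had another order among DOX mice. Krt86, a type II chain, was at 2.40, 3.18 and 4.21 in DOX mice, against -0.07, 2.59 and 2.33 in no DOX mice. Krt34, a type I chain, was at 1.61, 1.79 and 2.79 with DOX, against -0.93, 1.53 and 1.51 without. Krt33a, also type I, was at 0.43, 0.89 and 1.73 with DOX, against -1.93, 0.42 and 0.47 without. In these genes DOX replicate 3 was highest and no DOX replicate 1 far lowest. Krt87, a type II hair keratin, was at 0.34, 0.01 and 0.83 with DOX, against -2.78, -0.55 and -0.30 without. All DOX values of Krt87 lay above all others, with a log2 difference of 1.60 ± 0.65 (unadjusted p = 0.0444 and adjusted p = 0.254 in limma). Krt81, a type II cortex keratin, was at 2.10, 1.99 and 2.29 with DOX, against 0.97, 1.56 and 1.79 without, again with no overlap. Its difference of 0.68 ± 0.22 had the smallest p of the class (adjusted p = 0.187, limma). Krt31 and Krt33b, type I cortex keratins, followed the same order of mice at the extremes. Krt35, of early hair matrix cells, and Krt32, of the hair cuticle, differed little (0.11 ± 0.43 and 0.01 ± 0.20).

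All 11 hair-type keratins had higher means with DOX, and all 11 had their lowest value in no DOX replicate 1, which was the lowest array for 19.4% of all genes tested. DOX replicate 3 was the highest array for 7 of the 11. The class median was 0.94, and without no DOX replicate 1 it was 0.41, with 9 means higher and 2 lower. No hair-type keratin passed in either fit, and by unadjusted p under 0.05 the count was 2 of 11 (both higher) with all mice, against 9.05% of all genes higher and 18.6% in either direction. Hair-shaft genes outside the family were lowest in that mouse in part. Of 10 keratin-associated protein genes listed, 4 were tested, all 4 with a higher mean and 0 past the test, while on 0 of 6 arrays were Krtap14, Krtap16-1 and Krtap6-1 well above background. Their summed level lay between 12.5 and 23.6 times the 75th percentile in DOX mice and between 4.25 and 14.9 in no DOX mice, with its lowest value in no DOX replicate 1 and its highest in DOX replicate 3. Of the 4 genes 3 were lowest in no DOX replicate 1, and Krtap3-2 was lowest in DOX replicate 1 with a difference of 0.11 ± 0.41. Tchh, a protein that binds keratin filaments in papillae and root sheath, was at 5.76, 5.06 and 4.95 with DOX, against 3.18, 4.84 and 5.11 without. Hoxc13, a transcription factor needed for hair and filiform papilla keratins, was at -1.06, -0.89 and -1.21 with DOX, against -3.12, -1.41 and -0.63 without. Both were lowest in no DOX replicate 1, as were 6 of the 11 listed regulators and partners of hair keratins, while 5 were lowest in another mouse. The labels do not say which part of the tongue was taken from each mouse, and its part in these values was not tested. The copies Krt33a and Krt33b, and Krt81, Krt86 and Krt87, resemble each other enough for probes to share signal.

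**Figure D4:**
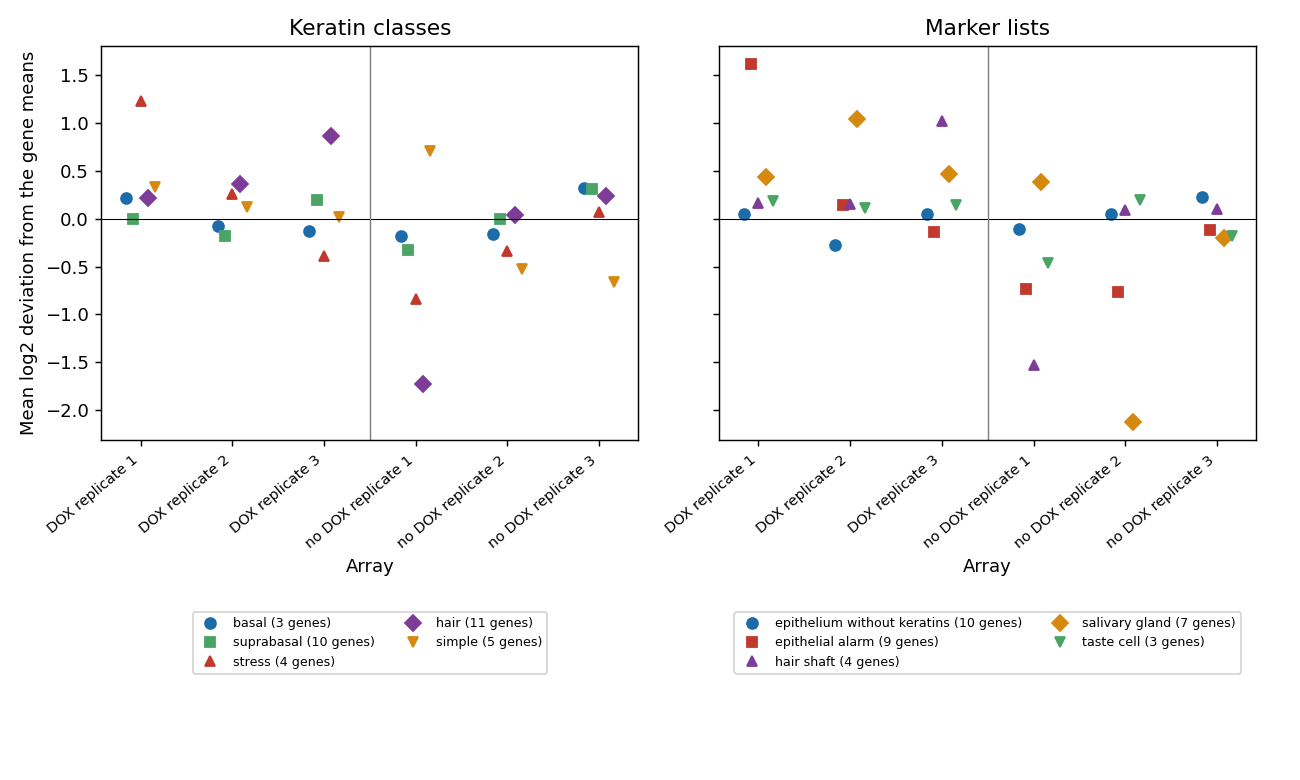
Mean log2 deviation from the gene means for 5 keratin classes (left panel) and 5 marker lists (right panel) on each array, DOX mice left of the grey line and no DOX mice right of it. The hair class is at -1.72 and the hair shaft list at -1.53 in no DOX replicate 1, and the stress class is at 1.23 and the alarm list at 1.62 in DOX replicate 1.

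Promoters of 3 adjacent hair-type genes are shown because these genes shared the highest mouse (DOX replicate 3) and the lowest (no DOX replicate 1) and lie next to each other on chromosome 11. They come from RefSeq (GRCm38.p6), cover 250 bases before to 50 bases after the gene start, and read 5′ to 3′ on the minus strand. Krt31 is at chr11:100050502-100050801, Krt33b at chr11:100029819-100030118 and Krt34 at chr11:100041505-100041804. Capitals mark TATAAA, the TATA box, and CTTTGAAG, the core of a motif of hair keratin genes that LEF1 is known to bind.
Krt31: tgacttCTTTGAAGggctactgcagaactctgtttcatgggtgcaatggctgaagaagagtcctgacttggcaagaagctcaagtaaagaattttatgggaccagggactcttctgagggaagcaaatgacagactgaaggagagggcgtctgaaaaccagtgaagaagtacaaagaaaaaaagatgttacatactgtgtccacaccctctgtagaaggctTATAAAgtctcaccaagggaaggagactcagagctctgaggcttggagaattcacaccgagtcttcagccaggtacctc
Krt33b: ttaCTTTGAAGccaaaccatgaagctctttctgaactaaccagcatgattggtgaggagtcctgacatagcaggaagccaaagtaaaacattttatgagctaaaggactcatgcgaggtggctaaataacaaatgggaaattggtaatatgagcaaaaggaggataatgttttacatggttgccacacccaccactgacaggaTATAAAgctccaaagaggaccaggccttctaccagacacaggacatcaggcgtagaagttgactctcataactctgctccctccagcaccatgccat
Krt34: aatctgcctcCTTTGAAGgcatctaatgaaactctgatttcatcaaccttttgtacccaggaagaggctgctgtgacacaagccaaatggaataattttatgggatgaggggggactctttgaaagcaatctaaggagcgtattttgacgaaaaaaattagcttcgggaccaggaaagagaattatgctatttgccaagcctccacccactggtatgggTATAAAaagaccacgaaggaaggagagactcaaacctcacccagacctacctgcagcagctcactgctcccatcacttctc

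In each of the 3, CTTTGAAG begins 240 to 247 bases and TATAAA 29 to 47 bases before the gene start. Both motifs were searched on both strands, and they do not overlap here. The CTTTGAAG letters were chosen after the sequences were read. They occur in 1.66% of the 32851 promoters of the table and in 5 of the 36 keratins it holds. These 5 are Krt31, Krt32, Krt33b, Krt34 and Krt39, all hair-type, of 9 hair-type genes in the table. TATAAA occurs in 13.6% of all promoters and in 19 of the 36 keratins. Krt31, Krt33b and Krt34 differed by 0.91 ± 0.44, 1.19 ± 0.81 and 1.36 ± 0.71, and none passed. Krt32 was level between groups, and Krt39 was not well above background. A match is a description of these letters and not a binding site or a cause. Lef1, the gene of that factor, was at 0.18, 0.45 and 0.45 in DOX mice, against 0.42, 0.87 and 1.64 in no DOX mice, and did not pass.

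Simple-epithelium keratins, made by glands, ducts and taste buds, differed in both directions. Krt20, known from Merkel cells and some taste cells, was at 0.15, -0.30 and -1.21 in DOX mice, against -1.24, -1.70 and -2.10 in no DOX mice. Its groups did not overlap, though the nearest values almost touched, and it had the smallest p of the family (fold 2.34, 95% interval from 1.25 to 4.37, unadjusted p = 0.0154, adjusted p = 0.172, limma). Krt8, the type II chain of simple epithelium, was at 2.30, 1.99 and 2.33 with DOX, against 2.06, 1.01 and 0.56 without. No DOX replicate 1 lay inside the DOX range, and the difference was 1.00 ± 0.37 (adjusted p = 0.226, limma). Its partner Krt18 was at 5.76, 5.69 and 6.26 with DOX, against 6.39, 5.89 and 5.31 without, a difference of 0.04 ± 0.29.

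Krt7, a type II keratin of ducts, was at 0.35, 0.12 and -0.18 in DOX mice, against 2.10, 0.09 and 0.48 in no DOX mice. No DOX replicate 1 stood apart, as it did for the type I keratin Krt19 at 1.94, where the other 5 mice lay between -0.26 and 0.78. Krt7 had the lowest difference of the family (log2 -0.79 ± 0.50), which was -0.18 without that mouse. The median of the 5 simple keratins was 0.10, and 0.77 without no DOX replicate 1. It was -0.13 when no DOX replicate 3 was left out. Salivary gland markers had differences in both directions. Of 7 tested members 4 had higher and 3 lower means, 0 passed, and the median was 1.82. By unadjusted p under 0.05 there were 4 higher and 1 lower of 7, against 9.05% and 9.58% of all genes. The same numbers had groups that did not overlap, against 12.7% and 12.6% of all genes. Both counts include Car6, which entered through the DOX group. Bhlha15, a transcription factor of secretory cells, was at 2.49, 3.28 and 3.27 in DOX mice, against 1.63, 0.91 and 1.04 in no DOX mice (adjusted p = 0.0648, limma). The secreted protein genes Bpifa2, Car6 and Lpo differed by 6.51 ± 1.64, 4.16 ± 0.96 and 2.55 ± 0.46, Car6 being well above background on 2 of 3 no DOX arrays. Klk1, Aqp5 and Dcpp1 had lower means, by -4.22 ± 1.92, -0.98 ± 0.43 and -0.76 ± 0.29, and these 3 were highest in no DOX replicate 1, as Krt7 and Krt19 were, whereas Lpo was lowest there. The summed level ran from 304 to 611 in DOX mice and from 190 to 455 in no DOX mice, with Bpifa2 as its largest part in each DOX mouse and Dcpp1 in each no DOX mouse.

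Of taste cell markers 3 of 6 were tested, and Plcb2 and Pkd2l1 were well above background on 0 of 6 arrays. Tas1r3 and Car4 differed by 0.08 ± 0.11 and 0.12 ± 0.10, and Gnat3 was well above background on 3 DOX arrays but 1 no DOX array, so it entered through the DOX group. Their summed level lay between 9.35 and 9.78 with DOX and between 8.32 and 9.52 without. Car4 alone made up 95.3% to 96.0% of that sum on each array. Of Merkel cell markers 3 of 4 were tested, with 1 mean higher and 2 lower, and Atoh1 was well above background on 0 of 6 arrays. Their summed level was 1.50 to 2.04 with DOX and 1.91 to 2.72 without, and Sox2 made up 74.9% to 86.1% of it on each array. In none of these lists did a gene pass, and their part in the simple keratin values was not tested.

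Of the 6 remaining tested keratins, Krt23 had the smallest p. Krt23, a type I keratin, was at 6.04, 5.96 and 6.51 in DOX mice, against 6.46, 6.94 and 6.94 in no DOX mice. The groups overlapped by DOX replicate 3 alone, and the mean was lower with DOX by log2 -0.61 ± 0.20 (unadjusted p = 0.0212, adjusted p = 0.193, limma). Krt23 was the 1 keratin with a lower mean at an unadjusted p under 0.05. Its difference stayed between -0.78 and -0.51 when any mouse was left out. Krt79, of the hair funnel and sebaceous ducts, was at 2.39, 2.41 and 3.17 with DOX, against 3.12, 2.68 and 3.26 without, and its groups overlapped. Krt80 and Krt222 spanned 0.62 and 0.46 log2 units over the 6 mice, with differences of 0.17 and -0.16.

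Partner chains of a filament pair did not always shift alike. The differences were 0.82 for Krt84 and 0.94 for Krt36, and 0.63 for Krt6a and 0.82 for Krt16. They were 0.06 ± 0.15 for Krt5 against 0.43 ± 0.35 for Krt14, though the dimmer Krt5 probe gave 0.32 ± 0.26. Those of Krt1 and Krt10 were 1.11 ± 0.70 and -0.13 ± 0.19, and those of Krt8 and Krt18 1.00 ± 0.37 and 0.04 ± 0.29. The difference within a pair was not tested. Where a keratin had several tested probes, those of Krt5, Krt6b, Krt36 and Krt78 had the same sign. Krt10 gave -0.13 and 0.24 and Krt13 -0.02 and 0.07.

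Genes that anchor keratin filaments were mostly lower with DOX, without passing. Of 17 desmosome and plakin genes 13 had lower and 4 higher means, 0 passed, and the median was -0.26. By array, 9 of the 17 were lowest in DOX replicate 2 and 11 were highest in no DOX replicate 3. The epithelial genes other than keratins, given below, were mostly lowest and highest in the same mice. Dst, a plakin that ties keratins to the basement membrane, was at 2.51, 2.47 and 3.44 in DOX mice, against 4.10, 3.77 and 3.96 in no DOX mice (adjusted p = 0.118, limma). Dsg2 and Dsc2, desmosomal cadherins, differed by -0.53 ± 0.16 and -0.61 ± 0.19. By the brightest probe, all DOX values of these 3 genes lay below all no DOX values. They were the only such genes of the 17, and 1 other had all DOX values above, against 12.6% and 12.7% of all genes. By unadjusted p under 0.05 there were 5 lower and 1 higher of 17, against 9.58% and 9.05% of all genes. Eppk1, a plakin of keratin networks, was the higher one at 0.60 ± 0.20.

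Of 11 hair keratin regulators and partners 7 had higher and 4 lower means, 0 passed, and the median was 0.18. Besides Tchh and Lef1, given above, Padi3, an enzyme that modifies Tchh, had the smallest p at 0.75 ± 0.27. Padi3 was well above background on 3 DOX arrays but 1 of 3 no DOX arrays. It thus entered the test, and the count of 7, through the DOX group. Of other intermediate filament genes 9 of 12 were tested, with 7 higher and 2 lower means, 0 past the test and a median of 0.20. Their smallest p was that of the nuclear lamin gene Lmnb2 (0.43 ± 0.17), followed by Lmnb1 (0.20 ± 0.12) and the neural filament gene Nes (0.41 ± 0.27).

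Of 10 epithelial genes other than keratins 2 had higher and 8 lower means and 0 passed, with a summed level of 248 to 303 in DOX mice and 257 to 364 in no DOX mice. Lypd3 alone made up 59.6% to 61.8% of that sum on each array. Of the 10 genes 7 were lowest in DOX replicate 2 and 6 were highest in no DOX replicate 3. The part of epithelial content in the keratin values was not tested. Skeletal muscle markers summed to 1902 to 2538 with DOX and 1723 to 2499 without. Of these 9 genes 8 were lowest in no DOX replicate 3, while 5 were highest in DOX replicate 2 and 4 in no DOX replicate 2. Fibroblast markers summed to 121 to 188 with DOX and 143 to 170 without, and endothelial markers to 16.2 to 18.3 and 17.2 to 18.2. Dcn made up 66.2% to 80.6% of the fibroblast sum, and Kdr 86.0% to 91.3% of the endothelial sum. None of these genes passed the test.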

How the data were processed

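The submitters hybridised Cy3-labelled cRNA from tongue to single-colour Agilent mouse arrays, per the labels' protocols. Spot intensity on a linear scale, background-subtracted as processed signal by Agilent Feature Extraction 11.5.1.1 with an mm9 annotation, was read from the deposited scanner output, per the file headers. The deposited value table is that intensity times 1 factor per array (3.70 to 3.99); the rule behind it is not stated. Groups came from the treatment label. All arrays shared 1 slide and 1 scan; DOX replicates 2 and 3 lay in another row than the rest.

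Outlier spots (146 to 195 per array) were left out, log2 signals averaged per probe, and each array's 75th percentile subtracted. Accessions were named through a GRCm38.p6 table (28331 of 55681 probes). Probes well above background on all 3 arrays of a group were tested (30934) with limma 3.58.1 in R 4.3.3, two-sided, threshold 0.05; ± after a difference is its SE. The brightest probe stood for a gene. Keratins named with values in every mouse were the 6 brightest, the 5 most positive and 5 most negative differences, and 2 per class by p, with up to 3 per partner list; Krt1, Krt6a, Krt18, Krt36, Krt84, Hoxc13, Eppk1, Bhlha15, Sprr2d, S100a8 and Slpi were added after their values were seen. The family, classes and lists were chosen with earlier results of these data known. The fit was tested on simulated data. Alternatives covered background, normalization, filter, variance model, probe rule, replicate block and leaving out each array.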

Additional observations from a re-analysis of the deposited data

How the results depend on the processing

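No keratin passed in any of the 15 alternatives. Over the 24 keratins chosen by rule the smallest adjusted p was 0.0971 (limma), and 2 of them, Krt13 and Krt5, changed sign in 5 fits, both from differences near 0. The count of all genes called was 106. It was 246 with normexp, 192 with a variance trend and robust settings, 1 with no filter on dim probes, and 0 to 48 when an array was left out. With the replicate block it was 0 (limma), where 2287 genes were higher and 2445 lower at an unadjusted p under 0.05. Same-numbered mice did not deviate together (correlations of -0.11, -0.01 and 0.01), and differently numbered mice gave -0.14 to 0.15. With 3 mice a group these correlations cannot exclude that mice were paired. The block gave 11 keratins at an unadjusted p under 0.05 (26.8%, against 18.0% of all genes), in place of 5. Of the 11 hair-type keratins 7 were at that p, in place of 2. Without no DOX replicate 1 the count of all genes was also 0, with 1796 higher and 1784 lower at that p. Leaving out each array moved the class medians between -0.13 and 0.77 for simple, 0.41 and 1.39 for hair-type, 0.29 and 1.1 for stress, -0.29 and 0.00 for suprabasal and -0.04 and 0.20 for basal keratins. The cause of these shifts was not tested. With quantile normalization 10 of 11 hair-type means were higher and the other was at -0.04. With 3 arrays a group, most keratins that vary between mice could not be resolved to within 2-fold.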
